A study of Mus musculus with 24 samples.

Results

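H3K4me3 was examined at the promoters of 10 imprinted genes, *Peg3*, *Snrpn*, *Ndn*, *Magel2*, *Mest*, *Nnat*, *Plagl1*, *Grb10*, *Igf2* and *H19*, in the cerebral cortex of C57BL/6 mice. A gene was represented by every counted peak region that overlapped one of its annotated transcription start sites (TSSs; GENCODE M1 on mm9), and alternative promoters were kept apart. The rule found 8 of the 17993 counted regions, which belong to 7 of the 10 genes. *Grb10* had 2 of these regions and the other genes 1 each. *Rosa* H2B-FLAG mice (genotype Rosa CAG-H2B-FLAG, heterozygous, recombined by Vasa-Cre) carried FLAG-tagged histone H2B ubiquitously. *Camk2a* H2B-FLAG mice (double-heterozygous males for Rosa26 CAG-floxed-pA-H2B-FLAG and for CaMKCreERT2) carried it in *Camk2a*-positive neurons after tamoxifen, which was given from 8 weeks of age at 1 mg per day for 5 days, a month before the tissue was taken. The age and sex of the *Rosa* H2B-FLAG mice are not given in the sources used here, and these mice carried no CaMKCreERT2 and are not described as having received tamoxifen. In each line, H3K4me3 was profiled by single ChIP-Seq, with an anti-H3K4me3 antibody alone, and by tandem ChIP-Seq (tChIP-Seq), in which chromatin was first purified with an anti-FLAG antibody. Each of the 4 groups had 3 libraries, and a lysate pooled the cortex of 2 animals. The lines are called *Rosa* and *Camk2a* below.

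Imprinted genes are expressed from the allele of one parent, because DNA methylation laid down in the egg or the sperm at an imprinting control region is kept on one parental copy after fertilization. H3K4me3 marks active promoters and is largely excluded from methylated CpG-rich DNA, so that a control region typically carries the mark on the unmethylated allele alone. Many imprinted genes are active in the brain, and *Grb10*, which encodes an adaptor protein that binds the insulin receptor, is a textbook case of a switch between cell types. It is transcribed from the maternal allele and an upstream promoter in most tissues, and from the paternal allele and downstream promoters in neurons. The counts carry no information on the parental allele, so all values below are sums over both copies.

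Total counts in the regions were between 6316125 and 8644574 in the *Rosa* single ChIP-Seq libraries, between 1457261 and 1828371 in *Rosa* tChIP-Seq, between 4063200 and 4233144 in *Camk2a* single ChIP-Seq and between 2709729 and 3049130 in *Camk2a* tChIP-Seq. The cell types in these samples were checked with marker lists at TSS regions. All 5 excitatory neuron regions were higher in *Camk2a* tChIP-Seq than in *Rosa* tChIP-Seq, and their summed level was 731.9 to 787 CPM (TMM-normalized counts scaled to the size of the library) against 321 to 348 CPM. All 5 astrocyte and all 5 endothelial regions were lower, with summed levels of 67.1 to 70.2 CPM against 226 to 278 CPM and of 34.3 to 46.0 CPM against 182 to 188 CPM, respectively. Of the remaining lists, 4 of 5 inhibitory neuron, 4 of 5 meningeal or mural and 5 of 6 oligodendrocyte regions were lower, and 1 oligodendrocyte region was higher. None of the 6 microglia and none of the 5 choroid plexus genes had a counted region over a TSS, so these cells could not be followed. In single ChIP-Seq, 2 of the 6 oligodendrocyte regions and no other marker region differed between the lines. Fewer cells that carry the mark at a promoter and less mark per cell cannot be told apart in these libraries.

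The 2 *Grb10* regions went in opposite directions between the lines. Both lie on chromosome 11 and on the minus strand, 8.82 kb apart. The upstream region (chr11:11936138-11937757) holds the TSS shared by 4 protein-coding transcripts, and the downstream region (chr11:11924732-11927314) holds the TSSs of 2 further protein-coding transcripts. Of the 9 annotated *Grb10* TSSs, the other 6 lie in no counted region. The sequences from 250 bases before to 50 bases after a TSS of each region are given because these are the promoters whose marks moved apart. The TSS with the most annotated transcripts was taken, and of the 2 downstream TSSs, which have 1 transcript each, the one nearer to the 5′ end of the gene. Capitals mark matches to TGCCGC on either strand, the hexamer that the imprint-keeping zinc finger protein ZFP57 binds when its CpG is methylated.
Grb10 upstream (chr11:11937355-11937654, minus strand): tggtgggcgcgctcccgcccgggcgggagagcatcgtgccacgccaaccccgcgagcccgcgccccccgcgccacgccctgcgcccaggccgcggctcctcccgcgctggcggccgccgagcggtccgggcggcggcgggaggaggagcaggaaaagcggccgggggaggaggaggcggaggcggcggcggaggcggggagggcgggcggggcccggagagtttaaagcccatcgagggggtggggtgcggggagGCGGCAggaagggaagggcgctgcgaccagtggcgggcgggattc
Grb10 downstream (chr11:11926686-11926985, minus strand): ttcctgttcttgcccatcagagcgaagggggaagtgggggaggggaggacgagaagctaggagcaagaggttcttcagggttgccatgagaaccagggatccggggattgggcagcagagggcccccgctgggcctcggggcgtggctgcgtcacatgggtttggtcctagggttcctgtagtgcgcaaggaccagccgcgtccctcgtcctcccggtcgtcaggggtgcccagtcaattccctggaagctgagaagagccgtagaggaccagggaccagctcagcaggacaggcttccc

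At the upstream *Grb10* promoter, *Rosa* tChIP-Seq gave 35.0, 29.2 and 26.9 CPM in its 3 libraries, from 41 to 67 reads. *Camk2a* tChIP-Seq gave 5.91, 7.94 and 7.37 CPM, from 18 to 22 reads. Every *Camk2a* library lay below every *Rosa* library, and the mark fell by 2.11 on the log2 scale (SE 0.204, edgeR adjusted p = 5.49e-15). At the downstream promoter, the 3 *Rosa* tChIP-Seq libraries had 18.3, 16.1 and 15.1 CPM, and the 3 *Camk2a* tChIP-Seq libraries had 36.4, 28.1 and 28.7 CPM. Here, every *Camk2a* library was the higher one, with a log2 fold change of 0.92 (SE 0.173, edgeR adjusted p = 6.75e-06).

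In single ChIP-Seq, the same promoters showed no such shift. The upstream region had 14.6, 15.8 and 14.6 CPM in *Rosa* mice and 20.7, 17.9 and 15.0 CPM in *Camk2a* mice, with overlapping groups and a log2 fold change of 0.24 (SE 0.131, edgeR adjusted p = 0.26). The downstream region had 20.0, 21.1 and 21.3 CPM and 25.6, 21.5 and 21.9 CPM, respectively. All 3 *Camk2a* values were above the *Rosa* values, by a log2 fold change of 0.14 that did not pass the test (SE 0.113, edgeR adjusted p = 0.476). The difference between the line effects of the 2 methods was itself tested as an interaction. It was -2.36 (SE 0.248, edgeR adjusted p = 1.87e-17) at the upstream and 0.77 (SE 0.210, edgeR adjusted p = 0.0015) at the downstream promoter. The downstream interaction had an adjusted p of 0.0197 without replicate 1 of *Camk2a* tChIP-Seq, whose 36.4 CPM was the highest value.

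Because both promoters were counted in the same library, their ratio is free of the scaling between libraries. The downstream region held 34.3%, 35.5% and 35.9% of the reads of both regions in *Rosa* tChIP-Seq, and 86.0%, 78.0% and 79.6% in *Camk2a* tChIP-Seq. The 95% Wilson intervals, which cover counting error alone, reached at most 48.2% in the first group and went down to 68.9% in the second. Both single ChIP-Seq groups lay between them, with 58.1% ± 1.15 in *Rosa* and 56.4% ± 2.64 in *Camk2a* mice (SD, n = 3 each). These shares are not corrected for width, which was 2583 bp downstream and 1620 bp upstream. Per kb, the single ChIP-Seq means were 8.04 CPM downstream and 9.26 CPM upstream in *Rosa*, and 8.91 and 11.0 CPM in *Camk2a* mice. The log2 ratio of downstream to upstream reads was -0.88 ± 0.0536 in *Rosa* and 2.14 ± 0.427 in *Camk2a* tChIP-Seq, a difference of 3.01 (exact permutation test, two-sided, p = 0.1, the smallest that 3 against 3 libraries can give). In single ChIP-Seq this difference was -0.10 (exact permutation test, two-sided, p = 0.4). The summed level of both regions was 46.8 ± 5.77 CPM in *Rosa* and 38.2 ± 3.60 CPM in *Camk2a* tChIP-Seq.

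**Figure D1:**
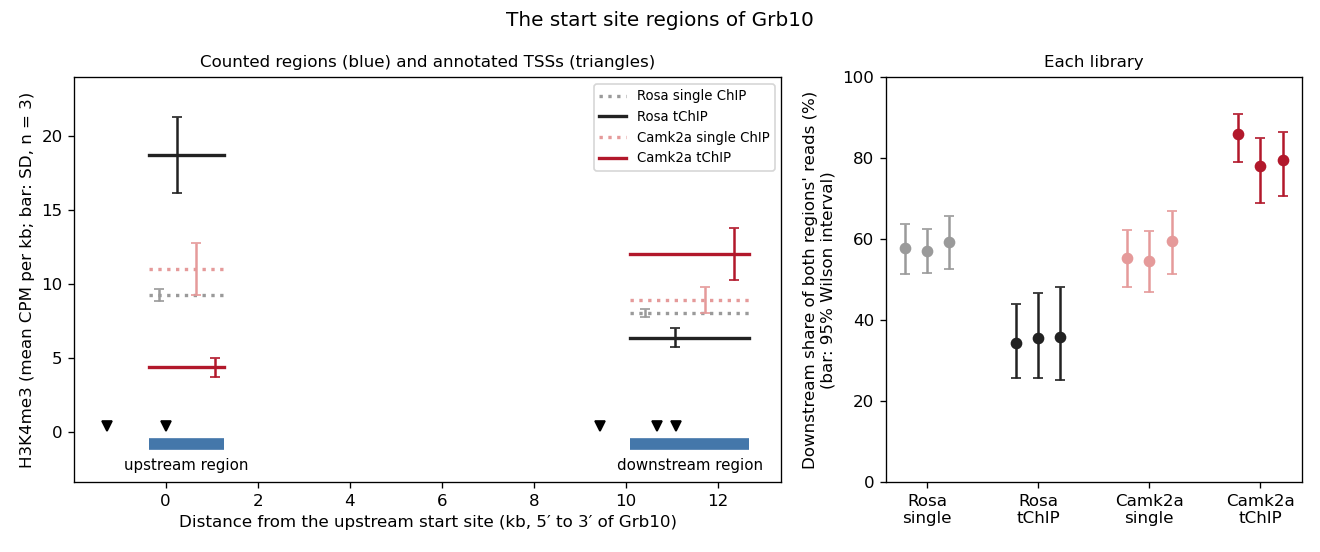
Left, mean H3K4me3 level in CPM per kb (bars, SD of 3 libraries) over the extent of the *Grb10* regions, drawn by distance in kb from the upstream start site, with annotated TSSs as triangles. Right, the share of both regions' reads that fell in the downstream region in each library with its 95% Wilson interval; it was between 34.3% and 35.9% in *Rosa* tChIP-Seq and between 78.0% and 86.0% in *Camk2a* tChIP-Seq.

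Over the 8 regions, 3 were higher and 1 was lower in *Camk2a* than in *Rosa* tChIP-Seq at an adjusted p under 0.01. Of all 17993 regions, 17.0% were called higher and 14.6% lower in this comparison. The median log2 fold change was 0.08 over the 8 regions and 0.00 over all regions. Beside the *Grb10* promoters, the called regions were those of *Peg3* and *Mest*, which are both expressed from the paternal allele. The interaction with the method was called for these same 4 regions, 3 of them positive and 1 negative, where 13.7% of all regions were called in the positive and 13.2% in the negative direction.

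The *Peg3* region (chr7:6681540-6685478) holds 2 of the 3 annotated TSSs of this gene, which encodes a large zinc finger protein, and its promoter is printed since it differed between the lines in tChIP-Seq.
Peg3 (chr7:6683081-6683380, minus strand): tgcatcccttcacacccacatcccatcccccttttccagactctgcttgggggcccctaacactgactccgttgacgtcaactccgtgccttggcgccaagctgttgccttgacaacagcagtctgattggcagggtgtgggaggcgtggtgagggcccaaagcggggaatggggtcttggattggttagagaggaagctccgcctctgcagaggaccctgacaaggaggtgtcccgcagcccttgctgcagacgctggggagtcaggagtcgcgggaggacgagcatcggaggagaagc
*Camk2a* tChIP-Seq had 67.3, 68.2 and 64.5 CPM at this region, and *Rosa* tChIP-Seq had 41.2, 47.1 and 39.4 CPM. The groups did not overlap, and the log2 fold change was 0.65 (SE 0.111, edgeR adjusted p = 7.34e-07). Single ChIP-Seq gave 81.5, 69.0 and 70.5 CPM in *Camk2a* and 77.9, 82.1 and 68.6 CPM in *Rosa* mice, which overlapped, with a log2 fold change of -0.06 (SE 0.0625, edgeR adjusted p = 0.589). The interaction was 0.71 (SE 0.131, edgeR adjusted p = 1.15e-06). *Rosa* tChIP-Seq was thus the group that stood apart at *Peg3*, below the other 9 libraries.

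The *Mest* region (chr6:30687503-30690405) holds 4 of the 11 annotated TSSs of the gene, which encodes a protein of the hydrolase fold family. The promoter at its TSS with the most annotated transcripts has 2 TGCCGC matches on the reverse strand.
Mest (chr6:30687803-30688102, plus strand): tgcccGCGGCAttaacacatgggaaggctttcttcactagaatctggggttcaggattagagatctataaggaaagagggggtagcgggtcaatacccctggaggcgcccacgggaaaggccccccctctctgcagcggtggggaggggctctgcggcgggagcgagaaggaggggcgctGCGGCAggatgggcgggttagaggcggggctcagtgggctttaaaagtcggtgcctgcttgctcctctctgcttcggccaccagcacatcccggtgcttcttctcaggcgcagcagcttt
*Mest* had 63.3, 60.6 and 59.3 CPM in *Camk2a* tChIP-Seq and 43.8, 45.3 and 45.3 CPM in *Rosa* tChIP-Seq, again without overlap. The log2 fold change was 0.46 (SE 0.111, edgeR adjusted p = 0.000439). The single ChIP-Seq libraries overlapped, with 53.2, 49.9 and 54.6 CPM in *Camk2a* and 58.8, 54.3 and 51.2 CPM in *Rosa* mice, and a log2 fold change of -0.07 (SE 0.0739, edgeR adjusted p = 0.648). The interaction was 0.51 (SE 0.136, edgeR adjusted p = 0.000913).

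**Figure D2:**
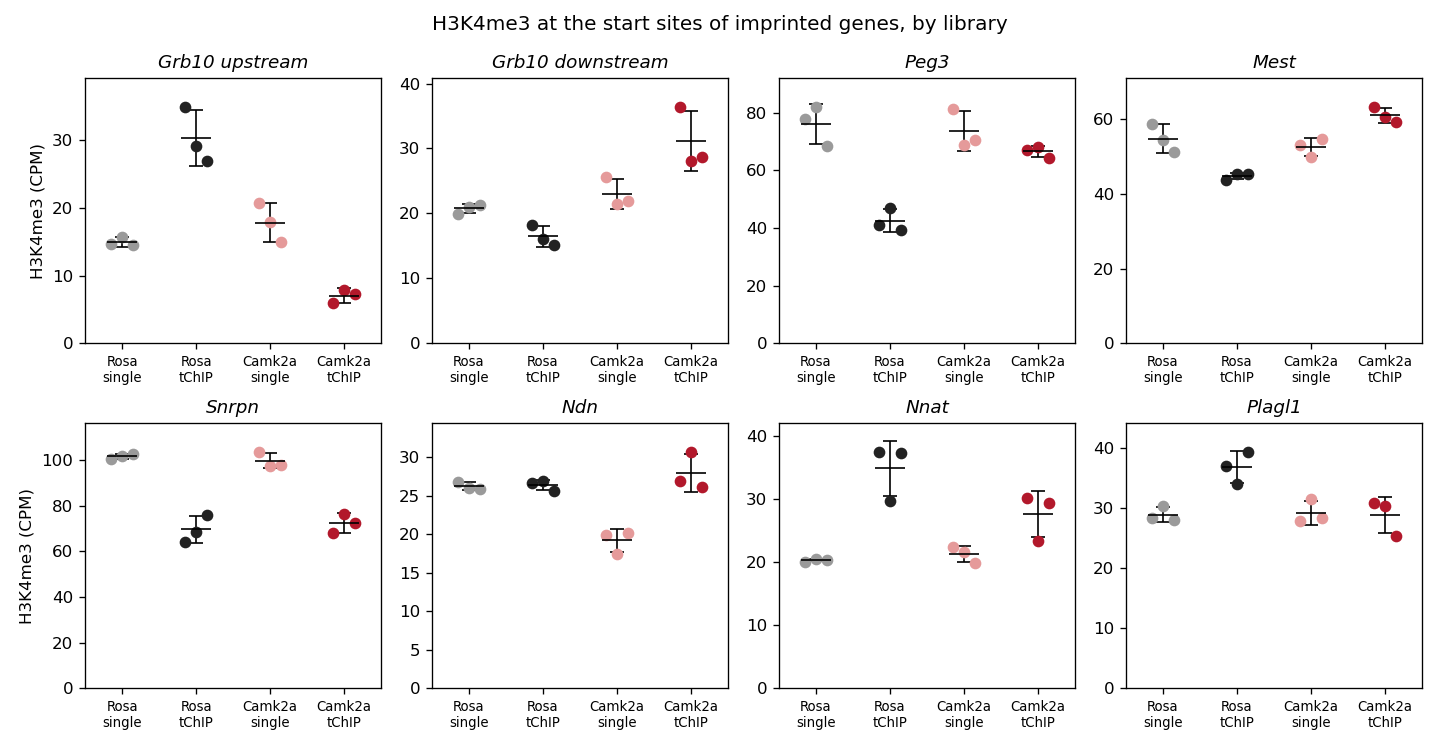
H3K4me3 in CPM in each of the 12 libraries (points) at the 8 imprinted gene regions, with the mean and SD of each group of 3. The upstream *Grb10* region falls from 30.4 to 7.07 CPM between the tChIP-Seq groups while the downstream region goes from 16.5 to 31.1 CPM.

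*Snrpn* and *Ndn* lie in the same paternally expressed domain of chromosome 7, whose loss underlies Prader-Willi syndrome in humans. *Snrpn* encodes the splicing protein SmN, and its promoter is part of the imprinting center of the domain. *Ndn* encodes necdin, a MAGE family protein of postmitotic neurons. Neither region differed between the lines in tChIP-Seq past the threshold. *Snrpn* (chr7:67147034-67150293) had 67.9, 76.5 and 72.6 CPM in *Camk2a* and 64.2, 68.6 and 76.1 CPM in *Rosa* tChIP-Seq (log2 fold change 0.07, SE 0.0971, edgeR adjusted p = 0.622). *Ndn* (chr7:69492916-69494492) had 26.9, 30.7 and 26.2 CPM and 26.6, 26.8 and 25.6 CPM, respectively (log2 fold change 0.09, SE 0.155, edgeR adjusted p = 0.699). Both pairs of groups overlapped. Their promoters are shown as a pair that differs in sequence, since the *Snrpn* promoter has 2 TGCCGC matches and that of *Ndn* has none.
Snrpn (chr7:67149993-67150292, minus strand): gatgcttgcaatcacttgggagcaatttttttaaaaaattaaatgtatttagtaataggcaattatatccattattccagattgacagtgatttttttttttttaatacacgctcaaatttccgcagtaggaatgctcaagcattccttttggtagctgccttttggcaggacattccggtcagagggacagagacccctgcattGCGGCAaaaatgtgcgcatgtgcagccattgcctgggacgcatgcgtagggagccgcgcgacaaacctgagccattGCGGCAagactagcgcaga
Ndn (chr7:69492913-69493212, plus strand): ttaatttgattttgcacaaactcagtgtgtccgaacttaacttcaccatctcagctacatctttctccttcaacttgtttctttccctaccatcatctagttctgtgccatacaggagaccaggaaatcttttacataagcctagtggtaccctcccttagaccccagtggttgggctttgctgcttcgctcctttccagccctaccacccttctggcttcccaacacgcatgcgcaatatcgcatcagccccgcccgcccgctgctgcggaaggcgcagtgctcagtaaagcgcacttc

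In single ChIP-Seq, *Ndn* was the only one of the 8 regions called between the lines, and it was lower in *Camk2a* mice, where 0.928% of all regions were called higher and 1.22% lower. It had 19.9, 17.4 and 20.2 CPM in *Camk2a* and 26.8, 26.0 and 25.9 CPM in *Rosa* mice, without overlap, and fell by 0.45 on the log2 scale (SE 0.113, edgeR adjusted p = 0.00568). This call depended on each library: leaving out any one of the 6 gave adjusted p between 0.0121 and 0.0726, and the Wald test of DESeq2 gave an adjusted p of 0.198. The interaction at *Ndn* was 0.53 (SE 0.193, edgeR adjusted p = 0.021).

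*Nnat* encodes neuronatin, a small membrane protein of developing brain, and *Plagl1* a zinc finger transcription factor. Both are expressed from the paternal allele. The *Nnat* region (chr2:157385376-157387656) had 30.2, 23.5 and 29.5 CPM in *Camk2a* and 37.6, 29.8 and 37.4 CPM in *Rosa* tChIP-Seq (log2 fold change -0.33, SE 0.147, edgeR adjusted p = 0.0683). This region also holds a TSS of *Blcap*, in whose intron *Nnat* lies, and the reads of the 2 genes cannot be separated there. The *Plagl1* region (chr10:12809785-12811656) had 30.8, 30.3 and 25.4 CPM and 37.0, 34.0 and 39.4 CPM, respectively, and a log2 fold change of -0.34 (SE 0.142, edgeR adjusted p = 0.0486). The *Plagl1* groups did not overlap and the *Nnat* groups did, and neither passed the threshold of 0.01. In single ChIP-Seq, the log2 fold changes were 0.06 (SE 0.116, edgeR adjusted p = 0.794) for *Nnat* and 0.01 (SE 0.0986, edgeR adjusted p = 0.968) for *Plagl1*.

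**Figure D3:**
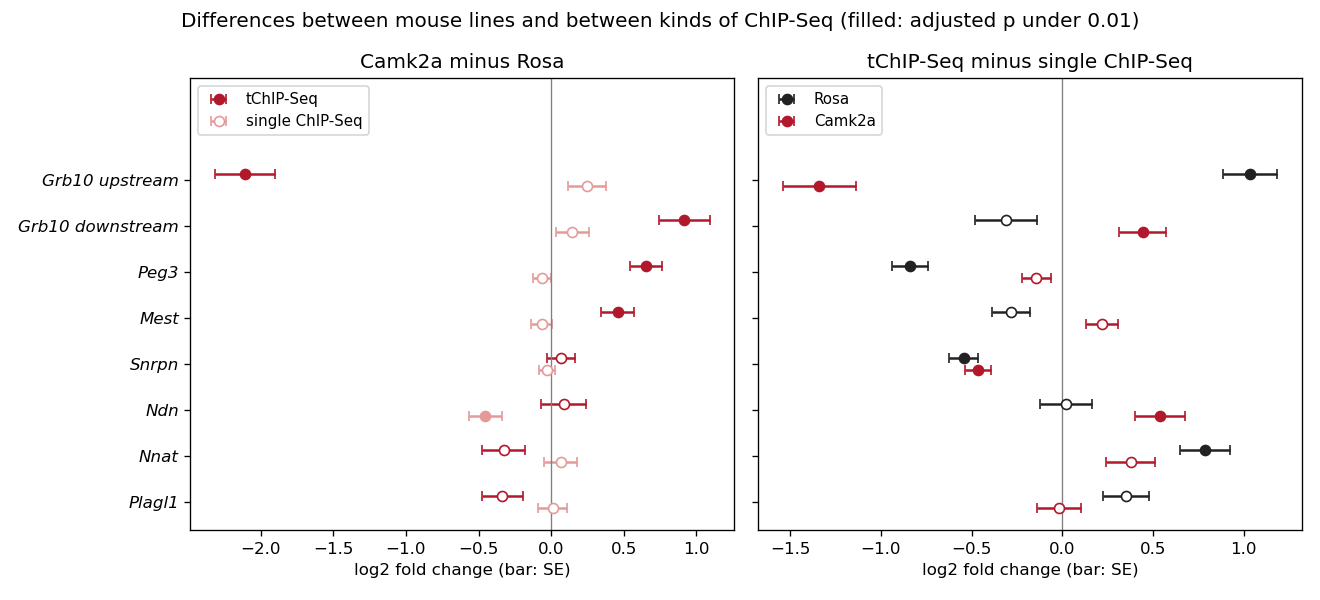
Log2 fold changes with SE at the 8 regions between the mouse lines (left) and between tChIP-Seq and single ChIP-Seq in each line (right), with filled symbols for an adjusted p under 0.01. Between the lines in tChIP-Seq, the upstream *Grb10* region lies at -2.11 and the downstream region at 0.92, while the single ChIP-Seq values lie between -0.45 and 0.24.

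The methods were also compared within each line. These comparisons share their libraries with the line comparisons above, so they are given as values and are no separate evidence. The paper reported peaks enriched and depleted in tChIP-Seq against single ChIP-Seq of *Rosa* mice, and proposed several possible biases behind them. It therefore made its quantitative comparison mainly between the lines in tChIP-Seq. In *Rosa* mice, tChIP-Seq exceeded single ChIP-Seq at 2 of the 8 regions and fell below it at 2, where 24.7% and 22.5% of all regions were called in these directions. The higher regions were upstream *Grb10* (log2 fold change 1.04, SE 0.151) and *Nnat* (0.79, SE 0.137), and the lower ones were *Peg3* (-0.84, SE 0.0986) and *Snrpn* (-0.54, SE 0.0805), with edgeR adjusted p between 3.62e-16 and 5.67e-08. The excitatory neuron markers were also below their single ChIP-Seq level in *Rosa* tChIP-Seq, in all 5 regions (summed level 321 to 348 CPM against 657 to 663 CPM), and all 5 astrocyte regions were higher (226 to 278 CPM against 181 to 186 CPM). Of the other lists, 4 of 5 meningeal or mural, 2 of 5 endothelial and 2 of 5 inhibitory neuron regions were higher, and 3 of 6 oligodendrocyte regions were lower. The part of these marker shifts in the values of the imprinted genes was not tested.

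In *Camk2a* mice, tChIP-Seq again exceeded single ChIP-Seq at 2 of the 8 regions and fell below it at 2, where 25.3% and 22.6% of all regions were called. *Ndn* (0.54, SE 0.137, edgeR adjusted p = 0.000326) and downstream *Grb10* (0.44, SE 0.128, edgeR adjusted p = 0.00167) were higher. Upstream *Grb10* (-1.34, SE 0.201, edgeR adjusted p = 2.08e-09) and *Snrpn* (-0.47, SE 0.0722, edgeR adjusted p = 6.5e-09) were lower. *Snrpn* was thus lower by a similar size in tChIP-Seq of both lines, and its interaction was 0.09 (SE 0.110, edgeR adjusted p = 0.59). Of these calls, downstream *Grb10* was lost with DESeq2 (adjusted p = 0.0334) and without replicate 1 of *Camk2a* tChIP-Seq (0.0765) or replicate 2 (0.0140) or 3 (0.0101) of *Camk2a* single ChIP-Seq, and *Ndn* was lost with DESeq2 (adjusted p = 0.0113). Among the markers in this line, 4 of 5 astrocyte, 5 of 5 endothelial, 5 of 6 oligodendrocyte, 3 of 5 meningeal or mural and 2 of 5 inhibitory neuron regions were lower in tChIP-Seq, 1 oligodendrocyte region was higher, and 4 excitatory neuron regions were higher and 1 lower. Their part in the *Grb10* values was not tested.

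Levels per kb of region allowed the genes to be ordered within a group. *Snrpn* was the highest of the 8 regions in each group, at 31.2 ± 0.294 and 30.6 ± 1.04 CPM per kb in *Rosa* and *Camk2a* single ChIP-Seq and at 21.4 ± 1.85 and 22.2 ± 1.32 CPM per kb in the tChIP-Seq groups (SD, n = 3 each). In single ChIP-Seq it lay above the next region, *Peg3*, in every library, whereas in tChIP-Seq its range overlapped that of *Plagl1* in *Rosa* and of *Mest* in *Camk2a* mice. *Peg3* and *Mest* did not differ beyond their spread in single ChIP-Seq. The lowest region was downstream *Grb10* in *Rosa* tChIP-Seq, at 6.38 ± 0.627 CPM per kb, and upstream *Grb10* in *Camk2a* tChIP-Seq, at 4.36 ± 0.647 CPM per kb. Upstream *Grb10* had the third highest mean of the 8 in *Rosa* tChIP-Seq, at 18.7 ± 2.56 CPM per kb. Its range there overlapped those of *Snrpn*, *Plagl1* and *Ndn*, so this rank was not resolved.

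Set beside the 13404 regions over a TSS of any gene, the imprinted promoters carried modest levels. In *Rosa* single ChIP-Seq, 54.5% of these regions had a lower level per kb than *Snrpn*, and for the other 7 imprinted regions the share was between 7.61% and 27.5%. In *Camk2a* tChIP-Seq, the share was 30.2% for *Snrpn*, 27.5% for *Mest*, 18.8% for *Peg3*, 10.0% for downstream *Grb10* and 2.51% for upstream *Grb10*. Their widths ran from 1577 bp (*Ndn*) to 3939 bp (*Peg3*), 3 of the 8 below and 5 above the median of 2060 bp over all regions over a TSS.

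The sequences of the regions were compared with those of all regions over a TSS on mm9. The hexamer TGCCGC was searched on both strands, and 60.8% of the 13404 regions held at least 1 match, with a median of 0.406 matches per kb. Of the 8 imprinted regions, 7 held a match. *Mest* had 11 matches (3.79 per kb), *Nnat* 8 (3.51 per kb), *Plagl1* 6 (3.21 per kb), upstream *Grb10* 5 (3.09 per kb) and *Snrpn* 10 (3.07 per kb), and each of these densities was above that of more than 99% of the regions. *Peg3* had 7 (1.78 per kb) and downstream *Grb10* 4 (1.55 per kb), above 96.1% and 94.0% of the regions, and *Ndn* had none. In the windows of 300 bases, 20.9% of 13403 promoters and 5 of the 8 imprinted promoters held a match. The motif AAGATGGC of the factor YY1, searched the same way, was found 3 times in the *Peg3* region and once in that of *Snrpn*, where 13.8% of all regions over a TSS held it, and in none of the 8 windows of 300 bases. The ratio of observed to expected CpG in the upstream *Grb10* region was 1.03, above 99.9% of the regions over a TSS, and it was 0.84 in the downstream region, above 94.2%. In the windows of 300 bases it was 0.96 upstream, above 83.5% of promoters, and 0.47 downstream, above 16.8%. A match to these letters is a description of the sequence and shows neither binding nor methylation.

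For the 4 regions with a called interaction, the 3 most similar protein-coding promoters were sought by the Euclidean distance between the 4 centred group means of log2(CPM + 1), among 11871 regions with a mean of at least 50 counts. Upstream *Grb10* was closest to the promoters of *Car14* (distance 0.064), *Casp8* (0.12) and *Pbxip1* (0.14). Downstream *Grb10* was closest to *Scn2a1*, a voltage-gated sodium channel, *Ctxn2*, and a region shared by *1700101I19Rik* and *Fam123c*, with distances between 0.03 and 0.04. *Peg3* was closest to *Gria2*, an AMPA receptor subunit (0.03), and *Plk2* (0.04). *Mest* was closest to *Adcy9*, *Zfp493* and *Mn1*, with distances between 0.01 and 0.02.

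The remaining members had no counted region over a TSS. *Magel2*, an intronless gene next to *Ndn*, had a region of 378 bp that starts 279 bp after its TSS (chr7:69522144-69522521). It held between 3 and 17 reads per library, with 2.87 ± 0.848 CPM in *Rosa* and 3.73 ± 0.692 CPM in *Camk2a* tChIP-Seq (SD, n = 3 each) and a log2 fold change of 0.36 (SE 0.442, edgeR adjusted p = 0.562), a depth at which this difference was not detectable. For *Igf2*, a fetal growth factor, and *H19*, the long noncoding RNA beside it, the nearest counted region was that of *Mrpl23*, 123 kb and 42.5 kb from the closest TSS, respectively. No level is given for these 2 genes, since regions without a called peak were not counted.

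A wider list of 55 other imprinted genes was followed as context, of which 40 had a counted region over a TSS, 41 regions in all. In tChIP-Seq, 13 of the 41 regions were higher and 11 lower in *Camk2a* than in *Rosa* mice, with a median log2 fold change of 0.16, where 17.0% of all regions were called higher and 14.6% lower. Among regions of genes listed as paternally expressed, 3 of 14 were higher and 5 lower. Among those of genes listed as maternally expressed, 5 of 18 were higher and 4 lower. The parental classes were given per gene, not per promoter, and the allele expressed in the cortex was not measured. Both *Inpp5f* regions therefore count as paternal. Among genes whose imprint depends on isoform or tissue, 5 of 10 regions were higher and 2 lower. The region shared by *Commd1* and *Zrsr1* counts both in this class and in the paternal one. Both parental classes thus held regions of either direction. In single ChIP-Seq, 1 of the 41 regions was called, *Htr2a* (log2 fold change 0.31, SE 0.0661, edgeR adjusted p = 0.000968). In the interaction, 11 regions were called in the positive and 8 in the negative direction, beside 13.7% and 13.2% of all regions.

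The regions with the largest positive line effect in tChIP-Seq were *Kcnk9*, a maternally expressed potassium channel (log2 fold change 1.54, SE 0.0882), and *Meg3*, a maternally expressed long noncoding RNA (1.45, SE 0.153). Next came *Rasgrf1*, a paternally expressed exchange factor for Ras proteins (0.98, SE 0.114), 1 of the 2 regions of *Osbpl5* (0.80, SE 0.0879) and *Htr2a*, a serotonin receptor (0.72, SE 0.0972). The other *Osbpl5* region had a log2 fold change of 0.07 (SE 0.179, edgeR adjusted p = 0.787). *Kcnk9* had 147, 146.9 and 142 CPM against 49.6, 51.9 and 49.2 CPM, so that the groups lay far apart. The single ChIP-Seq means at *Kcnk9* lay between them, at 102 CPM in *Camk2a* and 96.0 CPM in *Rosa* mice. On the log2 scale, tChIP-Seq was below single ChIP-Seq by 0.92 (SE 0.0896) in *Rosa* and above it by 0.52 (SE 0.0600) in *Camk2a* mice. *Meg3* had 53.1, 48.4 and 45.3 CPM against 17.7, 14.3 and 22.3 CPM. In single ChIP-Seq the mean at *Meg3* was 55.2 CPM in *Camk2a* and 51.4 CPM in *Rosa* mice, so that *Rosa* tChIP-Seq was the group that stood apart. *Kcnk9* and *Meg3* had log2 fold changes in single ChIP-Seq of 0.08 (SE 0.0533) and 0.10 (SE 0.0736), and their interactions were 1.45 (SE 0.106, edgeR adjusted p = 1.39e-30) and 1.35 (SE 0.172, edgeR adjusted p = 1.64e-12). *Cobl* (0.79, SE 0.105) was also among the largest positive interactions.

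The most negative line effect in tChIP-Seq was at *Mkrn3*, a paternally expressed ring finger gene of the *Snrpn* and *Ndn* domain. It had 4.26, 5.41 and 4.42 CPM in *Camk2a* and 41.2, 42.9 and 39.4 CPM in *Rosa* tChIP-Seq, and fell by 3.12 on the log2 scale (SE 0.204, edgeR adjusted p = 2.61e-23). In single ChIP-Seq it had 17.5, 17.2 and 17.2 CPM and 21.9, 20.5 and 20.1 CPM, respectively, and the interaction was -2.86 (SE 0.251, edgeR adjusted p = 2.84e-23). *Peg12*, another paternally expressed gene of this domain, had a line effect of -0.59 in tChIP-Seq (SE 0.160, edgeR adjusted p = 0.00171). Its interaction was -0.83 (SE 0.216, edgeR adjusted p = 0.0008). Its mean was 21.2 CPM in *Camk2a* and 31.9 CPM in *Rosa* tChIP-Seq, and both lay above single ChIP-Seq (14.4 and 12.3 CPM, respectively). The domain therefore held promoters called lower in *Camk2a* than in *Rosa* tChIP-Seq (*Mkrn3*, *Peg12*) beside promoters with no called difference there (*Snrpn*, *Ndn*). The other regions with the most negative line effects had few reads: *Tfpi2* (-2.27, SE 0.460, 1 to 19 reads in the tChIP-Seq libraries), *Nespas* (-1.59, SE 0.276), *Asb4* (-1.50, SE 0.455) and *Phlda2* (-1.37, SE 0.271).

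*Inpp5f* was a further gene whose promoters were counted apart. The list classes this gene as a whole, so it does not tell which of the promoters is imprinted. Its downstream region (chr7:135830855-135835206), one of the largest positive interactions at 0.79 (SE 0.137, edgeR adjusted p = 2.39e-07), had 63.3, 67.5 and 56.4 CPM in *Camk2a* and 37.0, 32.8 and 45.9 CPM in *Rosa* tChIP-Seq. Its upstream region (chr7:135754203-135756700), named here after its values were seen, had 57.7, 60.6 and 58.6 CPM and 83.5, 79.3 and 78.7 CPM, respectively. The line effects in tChIP-Seq were 0.71 (SE 0.120, edgeR adjusted p = 5.45e-07) downstream and -0.45 (SE 0.0960, edgeR adjusted p = 6.82e-05) upstream. The called differences thus had opposite directions, as at *Grb10*. However, the downstream means of single ChIP-Seq were 61.0 CPM (*Camk2a*) and 64.2 CPM (*Rosa*), so that *Rosa* tChIP-Seq stood apart there. In *Camk2a* mice, downstream tChIP-Seq differed from single ChIP-Seq by 0.03 on the log2 scale (SE 0.0846, edgeR adjusted p = 0.743). Downstream *Grb10* had 0.44 in that comparison. The upstream *Inpp5f* value was -0.32 (SE 0.0819, edgeR adjusted p = 0.0004).

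**Figure D4:**
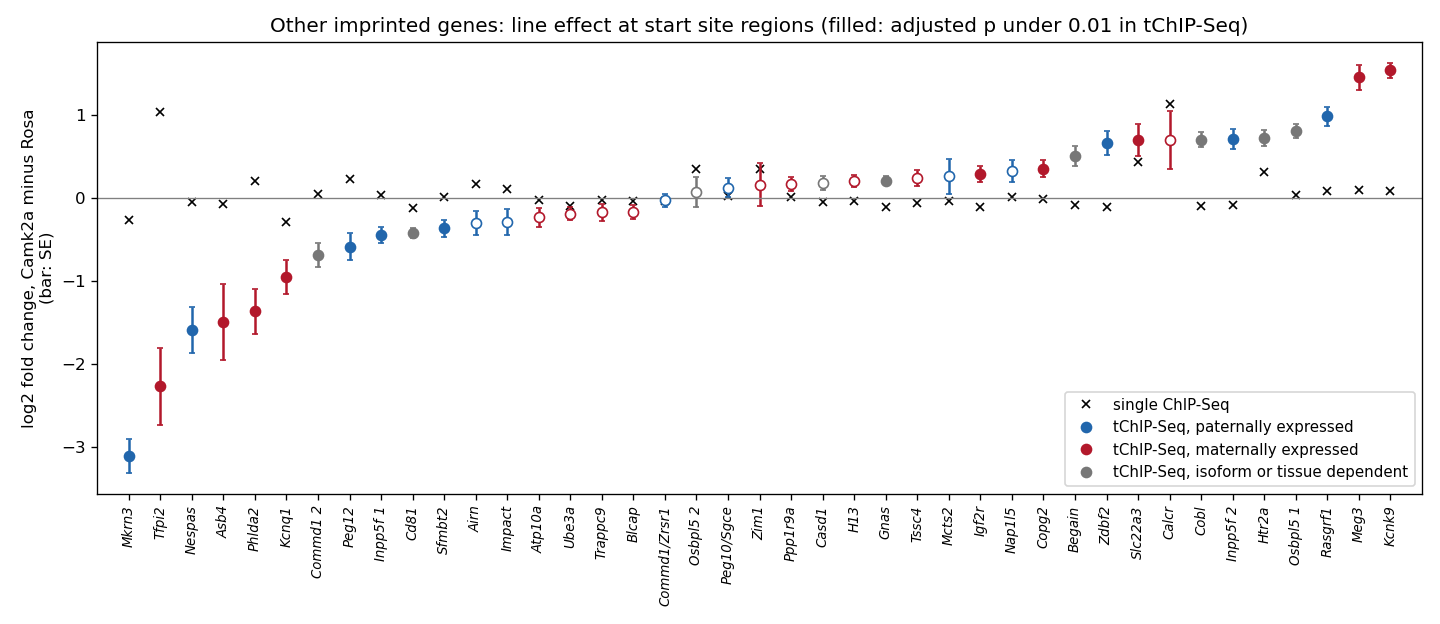
Log2 fold change between *Camk2a* and *Rosa* mice at the 41 regions of the wider list, in tChIP-Seq (circles with SE) and in single ChIP-Seq (crosses). Circles are filled for an adjusted p under 0.01. Their color gives the class of the gene in the list (paternal, maternal, or isoform or tissue dependent), not an allele measured in the cortex. The region shared by *Commd1* and *Zrsr1* is drawn as paternal. Genes with several regions are numbered along the chromosome, and the values in tChIP-Seq run from -3.12 at *Mkrn3* to 1.54 at *Kcnk9*.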

How the data were processed

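H3K4me3 single ChIP-Seq and tChIP-Seq of mouse cerebral cortex were analysed in 12 libraries, and 12 input and FLAG libraries were not analysed here. The authors removed reads from repeats (Bowtie2 2.1.0), mapped the rest to mm9 (Bowtie 1.0.0), removed duplicates, called peaks with MACS and deposited whole-number read counts per peak region, counted with bedtools 2.17.0, without normalization. Each library had between 1457261 and 8644574 counts on the same 17993 regions, which limits the precision at weak peaks. Groups followed the labels.

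Each pair of groups was fitted on its own 6 libraries, and the interaction on all 12, with edgeR 4.0.16 under R 4.3.3 (TMM, glmQLFit and glmQLFTest, no filter, Benjamini-Hochberg over all regions, called at an adjusted p under 0.01), after a test on simulated data. SEs are the log2 fold change divided by the root of F. CPM values use TMM factors over all 12 libraries. p-values of the line effects measure the spread between lysates. Single ChIP-Seq and tChIP-Seq libraries of one number may share a lysate. In the comparisons of methods and the interaction, p-values therefore measure the spread between libraries, taken as independent. TSSs and genome came from GENCODE M1 and mm9, and ratios were tested with scipy 1.17.1.

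All members were described. From the wider list, up to 5 called regions with the largest change in each direction and separate tChIP-Seq groups were named, for the tChIP-Seq line effect and the interaction, and for each member with a called interaction the 3 most similar promoters, of which 1 is not reported here. Members and lists, including the cell type markers, were chosen with earlier results of these data known. The alternatives were DESeq2 size factors, DESeq2 1.42.0, at least 10 counts in every library, a threshold of 0.05, a fit over all 12 libraries, a replicate block, leaving out each library, and a sequence window of 1000 bases.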

Additional observations from a re-analysis of the deposited data

Results flagged for a closer look

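The line effect differed between tChIP-Seq and single ChIP-Seq, by the interaction term over all 12 libraries, at 4 of the 8 regions: upstream *Grb10* (-2.36), downstream *Grb10* (0.77), *Mest* (0.51) and *Peg3* (0.71). The edgeR adjusted p of these differences lay between 1.87e-17 and 0.0015. At each of the 4, the *Camk2a* and *Rosa* tChIP-Seq libraries did not overlap, and at each of the 4 the line effect in single ChIP-Seq did not pass the threshold. Marker regions of excitatory neurons (5 of 5) had positive and those of astrocytes and endothelial cells (5 of 5 each) negative interactions. So had 4 of 5 inhibitory neuron, 4 of 5 meningeal or mural and 5 of 6 oligodendrocyte regions, while 1 oligodendrocyte region had a positive one. Their part in these differences was not tested. Groups of 3 are too small for a search for samples that stand apart.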

How the results depend on the processing

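In the tChIP-Seq line effect, 4 of the 8 regions were called under every alternative at 0.01, and 5 at a threshold of 0.05. The single call between the lines in single ChIP-Seq (*Ndn*) fell to 0 with the Wald test of DESeq2 and to 0 whichever library was left out (range 0 to 0), and fewer libraries enter each of the latter fits; the cause under DESeq2 was not tested. For the wider list in single ChIP-Seq, 1 call became 3 at a threshold of 0.05, 0 with DESeq2, and 0 to 1 with a library left out. For the wider list in tChIP-Seq, 24 calls between the lines became 28 at a threshold of 0.05 and 17 with DESeq2. With a library left out, 19 to 23 of these regions were called. In the comparison of methods in *Camk2a* mice, 4 calls became 2 with DESeq2; the cause was not tested. Leaving out a library gave 3 to 4 calls in the interaction, where 3 was the count without replicate 1 of *Camk2a* tChIP-Seq. Signs changed at *Plagl1* alone, where the values are near zero and no call was made: with a library left out, its line effect in single ChIP-Seq ran from -0.0498 to 0.0503 and its difference between methods in *Camk2a* mice from -0.0715 to 0.0616. Of 520 log2 fold changes of the 8 regions under alternatives, 491 kept direction and call, 13 lost the call, 11 gained it and 5 changed sign.

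Libraries of the same number, within and between the lines, did not deviate together (12 pairs, correlation from -0.02 to 0.04). These deviations also hold counting error, so the check cannot decide whether single ChIP-Seq and tChIP-Seq libraries of one number share a lysate. The main fits used no pairing. A replicate block left 4, 1, 4, 4 and 4 of the 8 regions called in the 5 comparisons, the same counts as without it. With windows of 1000 bases, 50.7% of promoters held TGCCGC in place of 20.9%, and 8.71% held AAGATGGC in place of 4.10%. Depth limits the upstream *Grb10* region to 18 to 22 reads per library in *Camk2a* tChIP-Seq.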
